A study of Mus musculus with 5 samples.

Results

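Homeobox genes encode transcription factors that bind DNA through a homeodomain and lay out the body axis and the organs of the embryo. The families followed here were Hoxa to Hoxd, Irx, Pou, Lhx, Nkx, Pax, Dlx and the sine oculis (Six-type) genes. A probe was a member if it was no control and its RefSeq identifier led to a gene symbol of one of these families. On the array 116 probes of 93 genes met this rule, of 41174 probes in all, and 102 symbols of the annotation table fit it. The rule itself read gene symbols and no measured value, but the members were chosen with earlier results of these data known.

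Total RNA of 5 whole liver samples, called livers 1 to 5, was set against the same reference RNA on 2-colour Agilent arrays. The mice were C57BL/6N males on a diet with ethanol, which lasted 8 weeks and ended with 3 binges of ethanol at 5 g/kg each. Liver cDNA carried Cy5 and the reference, a purchased mouse RNA sold as assorted total RNA whose tissue is labelled liver, carried Cy3 on every array. All 5 samples form 1 group with no control diet beside it, so a ratio compares these livers with that RNA and says nothing of ethanol. The labels do not give the age of the mice or say whether each sample was 1 animal, so the p-values rest on the spread among these samples alone, which may be technical.

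Hox genes lie in clusters and are switched on along the axis of the embryo in the order of their paralog numbers. Iroquois (Irx), POU, LIM (Lhx), Nkx, Dlx and Six-type proteins specify neurons, heart, kidney, limb and sense organs, and Pax proteins carry a paired domain, which in Pax1 and Pax9 stands without a homeodomain. In adult liver most of these genes are known to be silent, while hepatocytes depend on other homeobox factors such as Hhex, Prox1 and Onecut1. Polycomb complexes are known to keep developmental homeobox genes off in adult tissue.

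Of the members, 2 stood at least 2-fold above the reference, Irx3 and Pou3f4. The 250 bases before their start sites are printed because these genes carry the highest ratios of the set. The sequences are those of RefSeq on GRCm38.p6, read 5′ to 3′ on the strand of the gene, at chr8:91801655-91801904 on the minus strand for Irx3 and chrX:110814129-110814378 on the plus strand for Pou3f4. Capitals mark the CCAAT box on either strand (ATTGG on the printed strand where the box is on the other).
Irx3: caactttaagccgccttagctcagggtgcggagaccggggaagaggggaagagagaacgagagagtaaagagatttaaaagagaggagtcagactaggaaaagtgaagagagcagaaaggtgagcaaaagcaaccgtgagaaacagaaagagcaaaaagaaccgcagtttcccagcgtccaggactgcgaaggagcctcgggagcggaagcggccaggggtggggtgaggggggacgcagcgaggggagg
Pou3f4: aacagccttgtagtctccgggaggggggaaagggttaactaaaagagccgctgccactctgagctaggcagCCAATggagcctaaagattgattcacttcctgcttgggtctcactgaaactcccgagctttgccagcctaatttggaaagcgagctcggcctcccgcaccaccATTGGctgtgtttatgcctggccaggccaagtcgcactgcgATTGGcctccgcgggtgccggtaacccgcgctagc

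The motifs searched on both strands were TAATTA (a homeodomain core), CCAAT (the CCAAT box), TATAAA (the TATA box), ATGCAAAT (the octamer bound by POU proteins) and ACANNTGT (bound by Iroquois proteins). The Pou3f4 window held 3 CCAAT matches, starting 179, 76 and 35 bases before the start site, and none of the other letters searched, and the Irx3 window held 0 matches of the 5 motifs. CCAAT was in 33.8% of 32851 promoter windows of this length and in 46.7% of the 75 windows of 62 member genes. TAATTA was in 4.84% of all windows and 2.67% of the members' windows, TATAAA in 12.4% and 8.00%, ACANNTGT in 6.31% and 4.00%, and ATGCAAAT in 1.60% and 0. GC content was 56.0% for Irx3 and 58.0% for Pou3f4, beside a median of 60.8% over the members and 52.4% over all windows. The ratio of observed to expected CpG had a median of 0.67 over the members and 0.37 over all windows. These are descriptions of the letters, since no readout here bears on binding.

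The signals of the arrays set what can be seen of such genes. On each array, 77.3% to 81.2% of spots in Cy5 and 69.9% to 78.4% in Cy3 were well above background, and no spot was saturated. Testing asked for 3 or more usable values and, on 3 or more arrays, a signal well above background in liver or reference. This held for 81 member probes of 72 genes. The other 35 probes stayed out, 32 because they were dim and 3 because too few spots were usable, and 23 probes were not well above background in either channel on any array. For 21 genes no probe was tested. All 9 hepatocyte markers, which check the tissue label, were tested, and their summed background-subtracted signal was 1101330 to 1192470 in liver against 396106 to 618006 in the reference. In whole tissue RNA, fewer cells of a type and less RNA per cell cannot be told apart.

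Ratios are given as log2 of liver over reference, so that 1 is 2-fold higher. Irx3 encodes an Iroquois factor of neural and cardiac development. Its log2 ratios were 1.43, 2.18, 2.17, 2.25 and 1.77 in livers 1 to 5. The background-subtracted signals behind them were 1006, 2284, 1950, 2342 and 1011 in liver and 323, 481, 323, 559 and 351 in the reference. Liver signal exceeded reference signal on each of the 5 arrays, and the lowest liver signal lay above the highest reference signal. The mean was 1.96 ± 0.35 (SD, n = 5), a ratio of 3.90-fold (limma adjusted p = 7.94e-05 over all 31737 tested probes), and it ranked 9 among all tested probes by ratio.

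Pou3f4 encodes a POU factor needed for inner ear and brain development. Its log2 ratios were 1.91, 1.98, 2.09, 1.85 and 1.56 in livers 1 to 5. Its background-subtracted signals were 1690, 5713, 4052, 4956 and 2110 in liver and 404, 1451, 820, 1712 and 953 in the reference. Liver was higher on every array, although the signals of the 2 channels overlapped between arrays, with liver 1 below the reference of array 4. The mean was 1.88 ± 0.20 (SD, n = 5), a ratio of 3.67-fold (limma adjusted p = 2.12e-05), at rank 20. The Irx3 and Pou3f4 probes each exceeded background clearly in liver and reference on all 5 arrays.

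**Figure D1:**
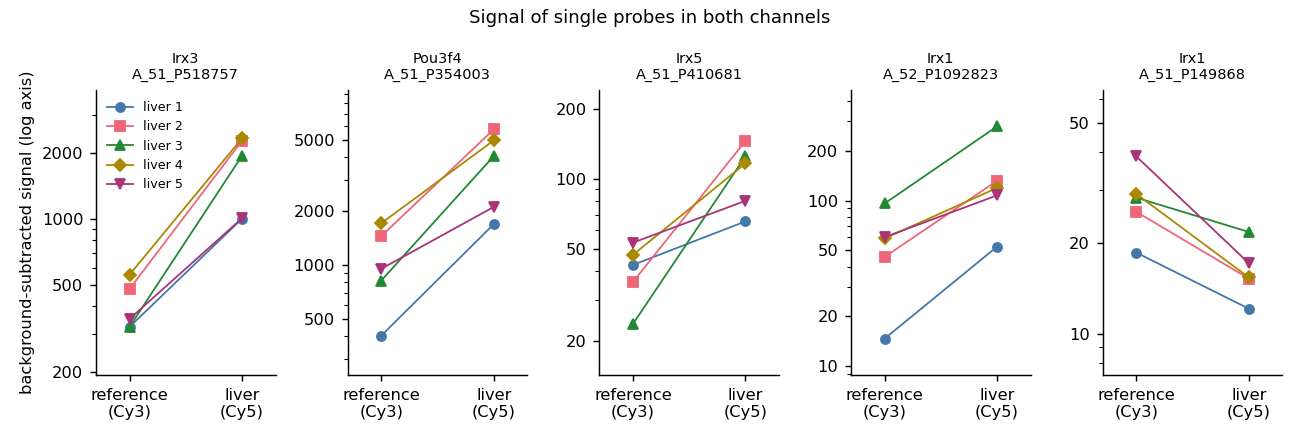
Background-subtracted signal (log axis) of 5 single probes in the reference channel (Cy3) and the liver channel (Cy5), with a line per array. The Irx3 and Pou3f4 probes rise from reference to liver on all 5 arrays, those of Irx5 and the brighter Irx1 probe do so at far lower signal, and the dimmer Irx1 probe falls on all 5.

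At the chosen limit of a Benjamini-Hochberg adjusted p below 0.05 and at least 2-fold, 2 of 81 member probes (2.47%) were higher, beside 1.2% of all tested probes. No member was lower by that rule in limma, beside 0.321% of all tested probes, and 8 member probes below 0 had an unadjusted p below 0.05. With no minimum ratio, 26 member probes (32.1%) of 24 genes stood above the reference, beside 16.3% of all tested probes, and 3 (3.70%) stood below, beside 11.6%. The other 52 did not pass in either direction. Every usable liver was above the reference for 30 member probes (37.0%), beside 20.7% of all tested probes, and below it for 9 (11.1%), beside 17.9%. The median log2 ratio was 0.09 over the member probes and -0.00 over all tested probes, and 64.2% of member probes were above 0 against 49.6% of all. Of the 81 means, 71 were within 0.5 of 0, 8 lay between 0.57 and 0.81, and those of Irx3 and Pou3f4 were higher. At 0.5 or more were 12.3% of member probes, beside 5.97% of all tested probes. At -0.5 or less were 0 member probes, beside 2.73% of all. The count of 26 was 14 without liver 4 (17.7% of members, beside 9.68% of all probes). Without liver 2 it was 17 (22.1% of members, beside 11.8% of all probes), so both shares fell together. The count of 3 below was 0 without liver 3 (8.08% of all probes), 1 without liver 1, 4 or 5, and 1 with no intensity trend or robust prior.

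**Figure D2:**
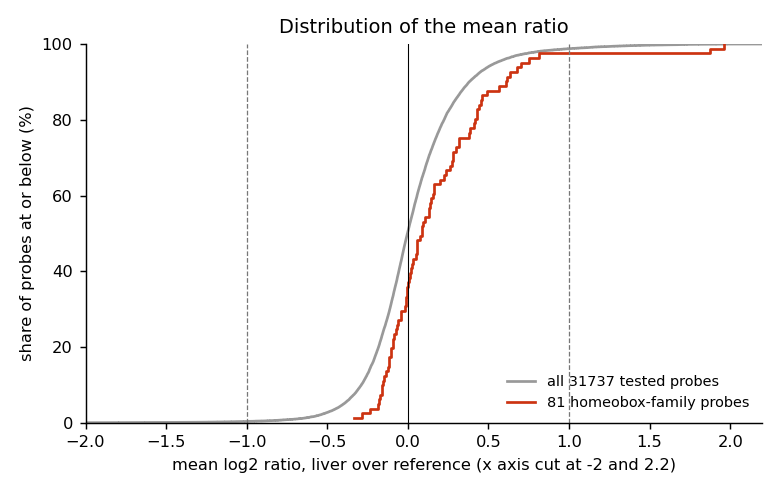
Share of probes (y axis, percent) at or below each mean log2 ratio (x axis) for the 81 tested homeobox-family probes and all 31737 tested probes, with dashed lines at 2-fold. The member curve lies to the right of that of all probes over most of its range, and 2 member probes lie beyond 2-fold.

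Among the Hox genes, 32 probes of 28 genes were tested, of 47 probes of 37 genes on the array. Of the tested probes, 10 stood above the reference with an adjusted p below 0.05, beside 16.3% of all tested probes on the array. By the same limma test 0 stood below, beside 11.6%. None reached 2-fold. Hoxc5 had the highest mean, at 0.92, 0.92 and 0.60 in livers 1, 4 and 5, a mean of 0.81 ± 0.18 (SD, n = 3, limma adjusted p = 0.00356), with the spots of livers 2 and 3 left out as outliers. With outlier spots kept it was at 0.65, below Hoxa2 at 0.70 and Hoxb9 at 0.67, and in the deposited ratios at 0.70, below Hoxa2 at 0.83. Hoxa2, which patterns the hindbrain and second branchial arch, followed with 0.40, 1.06, 0.72, 0.94 and 0.39, a mean of 0.70 ± 0.31 (SD, n = 5, limma adjusted p = 0.00319). All usable livers were above the reference for both genes, and livers 1 and 5 were the lowest for Hoxa2.

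By cluster, the median log2 ratio of tested probes was 0.06 for Hoxa (11 probes), 0.25 for Hoxb (8), 0.44 for Hoxc (5) and -0.02 for Hoxd (8). The counts above the reference with an adjusted p below 0.05 were 3, 4, 3 and 0, beside 16.3% of all tested probes. Hoxd3 had the highest mean of its cluster and the widest spread of all tested members, at -0.16, 1.02, 0.48, 0.78 and -0.18 in livers 1 to 5 (mean 0.39 ± 0.54, SD, n = 5, limma adjusted p = 0.142). Its values fell on both sides of 0, with livers 1 and 5 below. Hoxb4, a regulator of blood stem cells, showed the same split, at -0.19, 0.84, 0.33, 0.46 and -0.03 (mean 0.28 ± 0.41, SD, n = 5, limma adjusted p = 0.158). The lowest probes of the clusters were Hoxa6 at -0.34 ± 0.33, Hoxd11 at -0.16 ± 0.11, Hoxc10 at -0.12 ± 0.40 and Hoxb3 at -0.12 ± 0.11 (SD, n = 5 each), with adjusted p between 0.0614 and 0.547 in limma.

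Grouped by paralog number, from the 3′ to the 5′ end of the clusters, the median was 0.28 for paralogs 1 to 4 (11 probes), 0.04 for 5 to 8 (6 probes) and 0.00 for 9 to 13 (15 probes). In these bands 4, 2 and 4 probes stood above the reference with an adjusted p below 0.05, beside 16.3% of all tested probes. The ranges overlapped widely, from -0.12 to 0.70, from -0.34 to 0.81 and from -0.16 to 0.67, and the difference between bands was not tested.

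The Irx genes form 2 clusters in the mouse, Irx1, Irx2 and Irx4 in one and Irx3, Irx5 and Irx6 in the other. Besides Irx3, the tested probes of Irx5 and Irx1 stood above the reference. Irx5 was at 0.22, 0.94, 0.77, 0.92 and 0.33 in livers 1 to 5, a mean of 0.64 ± 0.34 (SD, n = 5, limma adjusted p = 0.00494). The tested Irx1 probe was at 0.53, 0.54, 0.67, 0.71 and 0.63, a mean of 0.62 ± 0.08 (SD, n = 5, limma adjusted p = 0.000462). The livers thus spread more for Irx5, where liver 1 and liver 5 were lowest, than for Irx1. Irx2, Irx4 and Irx6 had means between -0.01 and 0.08 over 4 probes, with adjusted p between 0.549 and 0.947 in limma. The order of the family was therefore Irx3 first, then Irx5 and Irx1 with overlapping values, then the others around 0.

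Irx5 and Irx1 were dim, and their size differed with the signals used. Background-subtracted signals of the tested Irx1 probe were 52.7, 132, 280, 119 and 107 in liver and 14.7, 45.7, 96.0, 59.1 and 60.2 in the reference. From the scanner software's processed signals, which differ in background correction, detrending and dye normalization at once, Irx1 was at 1.24 and Irx5 at 1.27, and both passed the 2-fold limit (limma adjusted p = 0.000382 and 0.00143). The Dlx2 probe met the limits there as well (limma adjusted p = 0.0487), but its reference was well above background on 0 arrays, so its ratio there is no measured size. With it the count of members called higher was 5, beside 3.65% of all tested probes.

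The 13 tested POU probes had a median of -0.04 in spite of Pou3f4. Of them 4 (30.8%) stood above the reference with an adjusted p below 0.05, beside 16.3% of all tested probes. Within class 3, factors of neural progenitors, Pou3f4 was apart from Pou3f2 at 0.42 ± 0.20 (SD, n = 4, limma adjusted p = 0.0160) and Pou3f3 at -0.04 ± 0.07 (SD, n = 5, limma adjusted p = 0.588). Pou5f1, the pluripotency factor Oct4, was the lowest POU probe, at -0.37, -0.13, -0.38, -0.10 and -0.43, a mean of -0.28 ± 0.15 (SD, n = 5, limma adjusted p = 0.0204), and it did not pass without liver 3 or 5 (limma adjusted p = 0.0659 and 0.0645). Pou5f1 has pseudogenes of near-identical sequence, so its probe may share signal. The widely expressed Pou2f1 (Oct1) gave -0.11 ± 0.17 and -0.16 ± 0.24 with its 2 probes (SD, n = 5 each), neither past the test.

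Nkx genes include regulators of heart, thyroid, brain and pancreas. Of 8 tested Nkx probes, 5 (62.5%) stood above the reference with an adjusted p below 0.05 and 0 below. The shares over all tested probes were 16.3% and 11.6%, and the Nkx median was 0.35. Nkx1-2 was the highest, at 0.17, 0.53, 0.69, 0.94 and 0.72 in livers 1 to 5 (mean 0.61 ± 0.29, SD, n = 5, limma adjusted p = 0.00390), and Nkx2-4 the lowest, at -0.13 ± 0.05 (SD, n = 5, limma adjusted p = 0.181). The cardiac factor gene Nkx2-5 reached 0.95 in liver 3 and lay between 0.13 and 0.50 elsewhere. Both Dlx probes tested, of 5 on the array, were above 0, Dlx1 at 0.57 ± 0.18 (SD, n = 5, limma adjusted p = 0.00221) in all livers. For Dlx2 the reference was not well above background on any array. Its liver signal was well above background on 4 arrays, and its log2 ratio was -0.16 in liver 1. Counted from the lowest signal well above background in Cy3, after loess and Aquantile scaling, the mean ratio over the arrays was 1.08-fold. That value is open to dye bias and is no lower limit, since Dlx2 did not pass the test (limma adjusted p = 0.0537).

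Among the 6 tested Lhx probes 2 (33.3%) stood above the reference with an adjusted p below 0.05, Lhx1 and Lhx3. Of all tested probes 16.3% stood above and 11.6% below. Lhx1, which acts in kidney and head development, was the highest, at 0.32 ± 0.11 (SD, n = 5, limma adjusted p = 0.0153) over 10 spots per array, and above 0 in each liver. It did not pass with median centring or without liver 4 (limma adjusted p = 0.0585 and 0.0583). Lhx2, a gene that hepatic stellate cells express, was the lowest, at -0.13, -0.69, -0.01, -0.27 and -0.09 in livers 1 to 5 (mean -0.24 ± 0.27, SD, n = 5, limma adjusted p = 0.102). Liver 2 stood lowest. The list of stellate cell markers was at -0.10, -0.48, -0.18, -0.15 and -0.12 in livers 1 to 5 over 10 tested probes, of which 1 stood above and 4 below the reference with an adjusted p below 0.05. Its summed signal was 4156 to 7992 in liver against 4243 to 8730 in the reference, and its part in the Lhx2 value was not tested. The 4 tested probes of the sine oculis genes lay between 0.05 for Six3 and 0.22 for Six5 and did not pass the test.

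Of 9 tested Pax probes, 2 (22.2%) stood below and 1 (11.1%) above the reference with an adjusted p below 0.05. The shares over all tested probes were 11.6% and 16.3%, and the Pax median was -0.09. Pax6, the eye and pancreas factor, stood below at -0.22, -0.07, -0.27, -0.21 and -0.15 in livers 1 to 5 (mean -0.18 ± 0.08, SD, n = 5, limma adjusted p = 0.0349), with 10 spots per array. It did not pass with median centring, processed signals or no trend and robust prior (limma adjusted p = 0.352, 0.0507 and 0.0616), nor without liver 1, 3, 4 or 5 (0.0704 to 0.0965). Pax1 stood below at -0.17 ± 0.10 (SD, n = 5, limma adjusted p = 0.0427). It was not among the members that passed when signal was required in both channels, with median centring, or with no trend and robust prior. Nor was it among them without liver 1, 2, 3 or 4. The second Pax1 probe, at -0.05, was not tested. Pax7, the muscle stem cell factor, stood above at 0.49 ± 0.14 (SD, n = 5, limma adjusted p = 0.00237), and all livers lay between 0.37 and 0.67. Pax8 spread from -0.80 in liver 1 to 0.48 in liver 4 (mean -0.10 ± 0.46, SD, n = 5, limma adjusted p = 0.648). Pax5, the B cell factor, was at -0.04 ± 0.11 (SD, n = 5, limma adjusted p = 0.648), and of the 5 B cell markers 1 stood above the reference and 0 below with an adjusted p below 0.05 in limma.

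**Figure D3:**
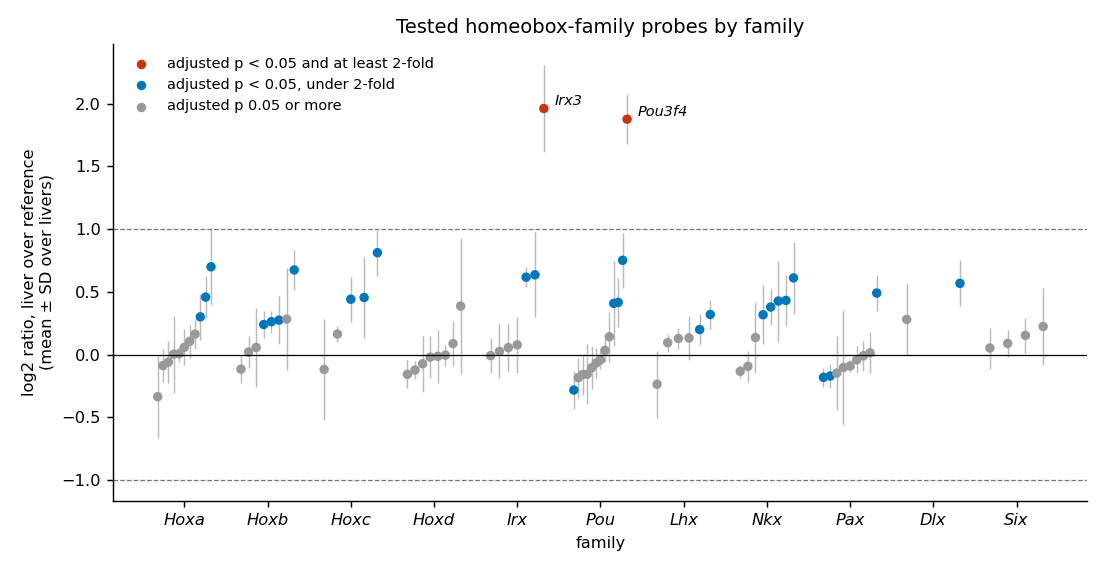
Mean log2 ratio of liver over reference (y axis, bars ± SD over 3 to 5 livers) for the 81 tested probes by family, coloured by the test, with dashed lines at 2-fold. Irx3 and Pou3f4 lie beyond 2-fold, and the other 79 probes lie between -0.34 and 0.81.

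Among probes named through RefSeq identifiers, Irx3 and Pou3f4 have 1 each, so whether a high ratio holds over their probes could not be asked. The same was true of 71 of the 93 genes. Of the 22 genes with more than 1 probe, 9 had 2 tested probes, and 0 had a tested probe at 2-fold or beyond. In 5 of these 9 genes (55.6%) the tested probes had the same sign, beside 55.3% of the 4571 genes of the array with 2 or more tested probes. Over the whole array 61 genes had a probe called higher and another tested probe, and in 0 of these did a second probe reach the same call, while 31 had another probe above 0.

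The difference between 2 probes of a gene, brighter minus dimmer, was fitted for all 7095 pairs of tested probes on the array. Of the 9 member pairs, 0 differed by at least 1 with an adjusted p below 0.05 in limma, beside 1.59% of all pairs, and 4 had an unadjusted p below 0.05. With no minimum size 2 differed, Hoxc10 and Hoxb9, beside 26.3% of all pairs. The brighter Hoxc10 probe was at 0.46 and the dimmer at -0.12, with a difference of 0.49 ± 0.14 (SD, n = 4, limma adjusted p = 0.00478) over the livers with both. The dimmer probe had 0.35 and 0.29 in livers 2 and 4 and between -0.46 and -0.33 in the others. For Hoxb9, a gene of thoracic identity, the probes were at 0.67 ± 0.16 and 0.27 ± 0.19 (SD, n = 5 each), so that both stood above the reference (limma adjusted p = 0.00109 and 0.0216) while differing by 0.40 ± 0.14 (SD, n = 5, limma adjusted p = 0.0105). The dimmer probe was well above background on 4 arrays in liver and on 1 in the reference. It was tested only through liver, where it is higher, so its p-value is no support for the brighter probe.

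Hoxa4 was the other gene with both probes above the reference, at 0.46 ± 0.17 and 0.30 ± 0.18 (SD, n = 5 each, limma adjusted p = 0.00333 and 0.0337), and its pair did not pass the test of a difference (limma adjusted p = 0.288). The median absolute difference of the 9 member pairs was 0.17, and that of all pairs 0.17. The widest gap lay within Irx1, whose second probe was at -0.07, -0.17, -0.35, -0.27 and -0.22 in livers 1 to 5, a mean of -0.22 beside 0.62. Its background-subtracted signals were 12.1 to 21.8 in liver against 18.6 to 38.8 in the reference. It was well above background on 1 array in the reference and on 0 in liver, and so was not tested. The second Hoxd3 probe, at -0.11 beside 0.39, was also not tested, being dim in both channels on every array.

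**Figure D4:**
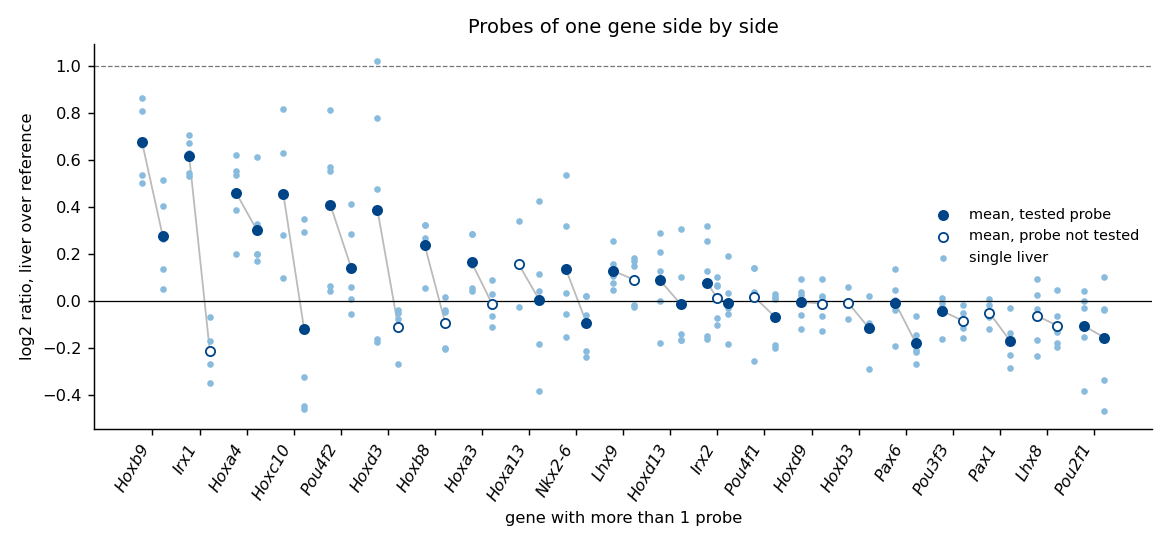
Log2 ratio of liver over reference (y axis) for each probe of 21 of the 22 genes with more than 1 probe, as single livers (small points) and means (large points, open where the probe was not tested), with a dashed line at 2-fold. No mean reaches 2-fold, and the gap is widest for Irx1, from 0.62 to -0.22.

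Of 7 member probes spotted 10 times each, 4 (one of Pax1, and those of Pax3, Hoxb1 and Nkx2-1) were well above background on 0 arrays in either channel and say little of precision. For the other 3, Pax2, Pax6 and Lhx1, which stood clear of background on all 5 arrays in both channels, spots of 1 array had a median SD of 0.10 to 0.14, and the means of the livers an SD of 0.04 to 0.11. Over the tested members the median SD between livers was 0.17, beside 0.17 over all tested probes.

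The order of the livers was read over the members that stood above the reference. Livers 1 and 5 were picked from these same values, so the counts are descriptions. Hoxc5 and Hoxc4 had values in 3 livers only, 1 and 5 among them, which can raise the counts. Of the 26 probes, 24 had their lowest value in liver 1 or 5, or 92.3%. This was so for 73.6% of the 5164 probes of the whole array that stood above the reference. Over all 81 tested members the share was 71.6%, beside 43.5% of all tested probes. The median over tested members was 0.03, 0.19, 0.09, 0.17 and 0.03 in livers 1 to 5, while that over all tested probes lay between -0.00 and 0.01. Of the 14 lists of other genes, 4 had their lowest means in livers 1 and 5: the other homeobox families at 0.00, 0.26, 0.22, 0.16 and 0.02 in livers 1 to 5, testis markers at -0.24, 0.06, -0.07, -0.05 and -0.13, B cell markers at -0.08, -0.08, 0.25, 0.07 and -0.12, and brain markers. The brain markers had a mean of -0.14, 0.20, 0.12, 0.21 and -0.10 over 13 tested probes. Of these 3 stood above and 2 below the reference with an adjusted p below 0.05 (16.3% and 11.6% of all tested probes). Their summed signal was 7970 to 16597 in liver against 7175 to 15051 in the reference. The other lists had other orders. Hepatocyte markers were at 1.41, 1.09, 0.38, 0.80 and 1.09 in livers 1 to 5, and the liver homeobox list was lowest in liver 2, at -0.29. Median signal over all probes was lowest in liver 1 in both channels, at 78.4 and 75.5, and for liver 5 at 111 and 151. The part of these in the members' order was not tested.

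**Figure D5:**
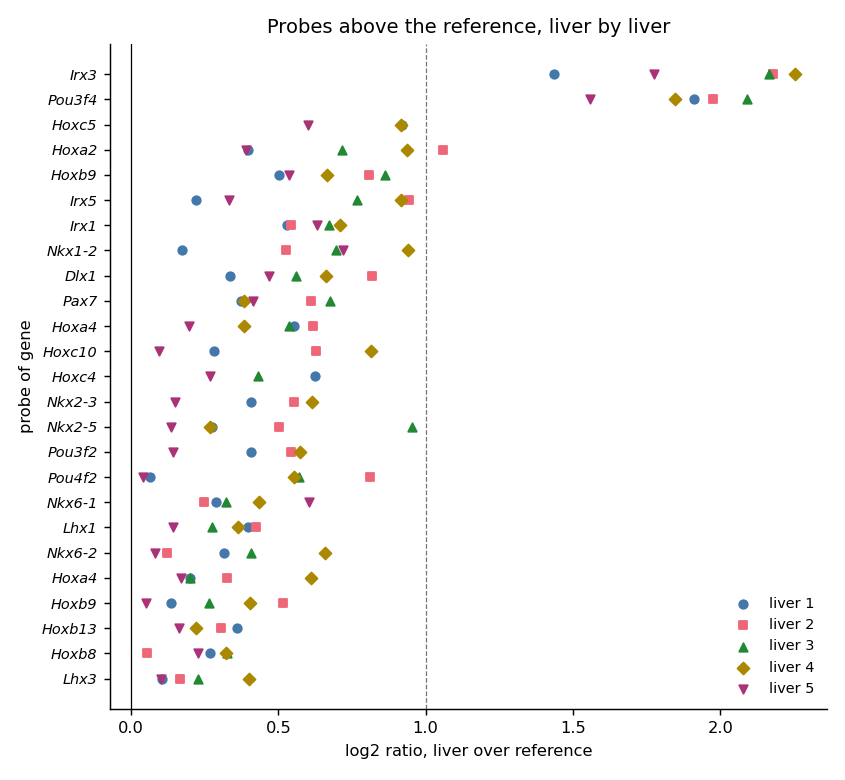
Log2 ratio of liver over reference (x axis) in each liver for 25 of the 26 member probes above the reference at an adjusted p below 0.05, ordered by mean, with a dashed line at 2-fold. Irx3 and Pou3f4 lie beyond 2-fold in every liver, and liver 1 or liver 5 is lowest in 23 of the 25.

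Other homeobox genes were read beside the members. Of 12 homeobox factors tied to liver, among them the members Lhx2 and Pou2f1, 15 probes of 10 genes were tested. Of these 1 stood above and 1 below the reference with an adjusted p below 0.05 (16.3% and 11.6% of all tested probes). Onecut1 (HNF6), a regulator of hepatocyte and bile duct genes, was the lowest, between -1.12 and -0.74 (mean -0.96 ± 0.16, SD, n = 5, limma adjusted p = 0.000218). It fell just short of the 2-fold limit and passed it with median centring (-1.11) and without liver 2 (-1.01). Cux2 stood above at 0.39 ± 0.15 (SD, n = 5, limma adjusted p = 0.00366), and at 1.31 from processed signals. Its probe was well above background on 5 arrays in liver and on 1 in the reference. It was thus tested only through liver, where it is higher, and neither value is a well measured size. Hhex, an early liver factor, was at 0.03 ± 0.63 and 0.09 ± 0.67 (SD, n = 5 and n = 3) with its 2 probes, which put liver 2 at -0.98 and -0.67. Prox1 was at 0.25 ± 0.21 (SD, n = 5, limma adjusted p = 0.0760) and did not pass the test. Onecut2, between -0.17 and -0.11 over 3 probes, and Zhx2, at -0.08, were also not past it.

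Cofactors that pair with Hox proteins on DNA (Pbx, Meis, Pknox and Tgif genes) had 16 tested probes of 11 genes, of which 2 stood above and 0 below the reference with an adjusted p below 0.05 in limma, with a median of 0.00. Of 56 tested probes of other homeobox families, 15 stood above and 4 below, with a median of 0.08, and 2 were at least 2-fold higher. Of 32 tested probes of polycomb and trithorax genes, 4 stood above and 8 below, with a median of -0.07, and 1 was at least 2-fold higher. Over all tested probes 16.3% stood above, 11.6% stood below and 1.2% were at least 2-fold higher.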

How the data were processed

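Spot and local background intensity, as medians and not normalized, was taken from the authors' 5 scanner files, whose headers name Feature Extraction 11.5.1.1. They also give a log10 ratio of processed intensities, which the software had background-subtracted, detrended and dye-normalized per the file headers. The deposited table of log2 ratios covers 40599 probes, and 100% of its values for probes with 1 spot matched the processed log2 ratio, liver over reference, within 0.001. Its column medians lay between -0.10 and -0.03.

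Median intensities were background-corrected (normexp, offset 50, all spots), then normalized by loess within arrays, with control and outlier spots at weight 0 and then left out, in limma 3.58.1 under R 4.3.3. Between 2.53% and 4.18% of spots per array were outliers. Spots of a probe were averaged. Probes were named through RefSeq identifiers in a table of GRCm38.p6, which named 24375 of 41174 probes. No probe coordinates are given, because the headers cite mm8. Mean ratios and probe differences were tested against 0 (eBayes with trend and robust prior, two-sided, adjusted over all 31737 probes or 7095 pairs). The test was checked on simulated data with 200 changed probes of 29799: it called 96.0% of those at a log2 change of 1.2. At a change of 0.5, 60.0% passed the adjusted p and 0% were called. The simulated noise was independent between probes, so an order shared over livers was not in it. The test does not hold the spread of the reference RNA, and dye effects do not cancel.

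The members and lists were chosen with earlier results of these data known. Named are called members, the highest and lowest tested probe of each family, the 5 largest SDs among probes that cleared background in liver and reference on each array, probes of genes with 2 or more tested probes of which 1 reaches 2-fold (none did), and the liver list. Irx1, Irx5, Pou3f2, Pou3f3, Nkx2-5, Pax1, Pax2, Pax5, Hoxa4, the second probes of Hoxb9 and Hoxc10 and the other genes named were added after their values were seen. The number of arrays limits the precision. Some genes that counts and medians include are not reported here by name.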

Additional observations from a re-analysis of the deposited data

Results flagged for a closer look

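For 36 of the named probes with 4 or 5 usable livers, the highest and lowest liver were set against the others, and 1 stood far apart. One of the 3 probes of Onecut2 was at -0.52 in liver 2 and between -0.15 and -0.03 in the others, a gap of 0.75 of the whole range against a limit of 0.71. Chance marks about 1 group in 20.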

How the results depend on the processing

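Irx3 and Pou3f4 were called higher under every alternative run, with means between 1.84 and 2.09 and between 1.72 and 1.96. The count of 2 higher members became 5 with processed signals and 5 in the deposited ratios, where all tested probes went from 382 higher and 102 lower to 1158 and 320, and to 1160 and 313. Each liver left out in turn gave 2 higher, 0 lower, 0 genes with differing probes and a median ratio between 0.05 and 0.13. The count of members above the reference was 26 of 81, 14 of 79 without liver 4 and 17 of 77 without liver 2. With no filter on dim probes it was 25 of 113. The shares of all probes were 16.3%, 9.68%, 11.8% and 13.3% in that order. Among single probes, 468 comparisons kept sign and call, 6 gained the call and 8 changed sign, none of them past the test: 1 Irx2 probe without liver 3 (0.0038) or 5 (range over livers left out -0.059 to 0.035), Pax8 without liver 1 (-0.25 to 0.073), both Hhex probes with median centring (-0.00026 and -0.11), and 1 of them without liver 1, 4 or 5 (-0.078 to 0.28). The causes were not tested. Slide as a block was not run, since the 5 arrays lie on 5 slides, scanned on 1 day. No paired analysis was possible because there is 1 group. Many members were dim, which limits the size that can be given to their ratios.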

Other observations

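Mnx1 and Ezh1, called genes of the other homeobox families and of the polycomb list, were named after their values were seen. Each also has 1 probe named through RefSeq identifiers. Mnx1, a factor of motor neurons and pancreas, was at 0.76, 1.30, 1.37, 1.46 and 0.94 (mean 1.17 ± 0.30, SD, n = 5, limma adjusted p = 0.000367). Ezh1, a histone methyltransferase of polycomb complex 2, was at 1.26, 2.01, 1.85, 1.90 and 1.26 (mean 1.66 ± 0.37, SD, n = 5, limma adjusted p = 0.000161). Livers 1 and 5 were the lowest for both, as for Irx3.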
